A study of Rattus rattus with 8 samples.

Results

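Interferon-stimulated genes are the genes that cells switch on after an interferon binds its receptor. The set described here was named gene by gene, as 36 symbols, and 33 of them had a row in the deposited table of 11762 genes. Ifit3, Oas2 and Xaf1 had none under those names and were not analysed here. The RNA was that of epithelium shaken off the proximal colon, from rats of 2 inbred strains, in 4 SHR libraries and 4 WKY libraries. SHR, the spontaneously hypertensive rat, develops high blood pressure with age, and WKY, the Wistar-Kyoto rat, is the normotensive strain it is usually set against. The labels name no treatment, age, sex or number of animals per library, so a p-value here speaks only of the spread among these 8 libraries, which may be technical. The comparison of SHR with WKY asked how the colonic epithelium of the hypertensive strain differs.

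Type I interferons (alpha and beta) and type III interferons (lambda) signal through the kinases Jak1 and Tyk2 to a complex that holds Stat2 and Irf9 and binds the promoters of antiviral genes. Type II interferon (gamma), made by T and natural killer cells, induces Irf1, which switches on further genes. In the gut, epithelial cells respond strongly to interferon lambda, and interferon-stimulated genes are also kept on at a low level by signals from the microbiota. The products sense viral RNA, block its translation or copying, draw in lymphocytes, or feed peptides to class I antigen presentation.

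Levels are given in FPKM, a unit per transcript length and per library size that lets genes be set side by side. Read numbers could not be recovered from it. Over all genes, the sum was 882295 to 986819 FPKM in the SHR libraries and 955654 to 1066833 FPKM in the WKY libraries. Over all genes, the Spearman correlations of WKY replicate 2 with the other WKY libraries were 0.972 to 0.987, and those among the other 3 were 0.977 to 0.986. Epcam, which encodes an adhesion molecule of epithelial cells, was at 1520 to 1699 FPKM in SHR and 1555 to 1668 FPKM in WKY. Of 9 epithelial markers with a row, Krt18 and Krt19 had all SHR values below all WKY values (11.3% of all listed genes). Krt20 had them above (5.20%), and the rest overlapped. Krt18, at 100.3 to 116.91 FPKM in SHR and 135.48 to 173.01 FPKM in WKY, alone passed the test described below (limma adjusted p = 0.0121). In bulk tissue, fewer cells of a type and less RNA per cell cannot be told apart.

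Interferon-stimulated genes were mostly lower in SHR, and WKY replicate 2 was the highest library for most of them. Of the 33 genes, 28 had a negative difference, and the median difference of mean log2(FPKM + 1) between SHR and WKY was -0.60, beside -0.07 over all listed genes. A level of at least 1 FPKM in at least 4 libraries was asked of a gene before it was tested, which 30 of the 33 met. At an adjusted p under 0.05 (limma, Benjamini-Hochberg over 11069 genes), 9 of these fell in SHR, where 7.48% of all tested genes fell. Another 2 rose, where 3.40% of all tested genes rose, and 19 did not pass. Ifit1 met the filter only through SHR and Ifit2 only through WKY. Without a filter, 10 of the 33 fell (7.80% of all listed genes) and 2 rose (3.38%).

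WKY replicate 2 was the highest of the 8 libraries for 28 of the 33 genes, while it was highest for 23.1% of all listed genes. It lay at least 0.5 above the mean of the other 3 WKY libraries on the log2 scale for 25 genes, beside 3.14% of all listed genes. Its median excess over those libraries was 0.72 for the 33 genes and 0.06 for all listed genes. WKY replicate 2 had been singled out from these same values, so these figures describe it and do not test it. The summed level of the 33 genes was 265.7, 279.9, 298.3 and 305.3 FPKM in SHR replicates 1 to 4, against 368.6, 726.1, 397.4 and 344.2 FPKM in WKY replicates 1 to 4. The strains did not overlap in that sum with or without WKY replicate 2, and this library had the highest value of the 8.

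**Figure D1:**
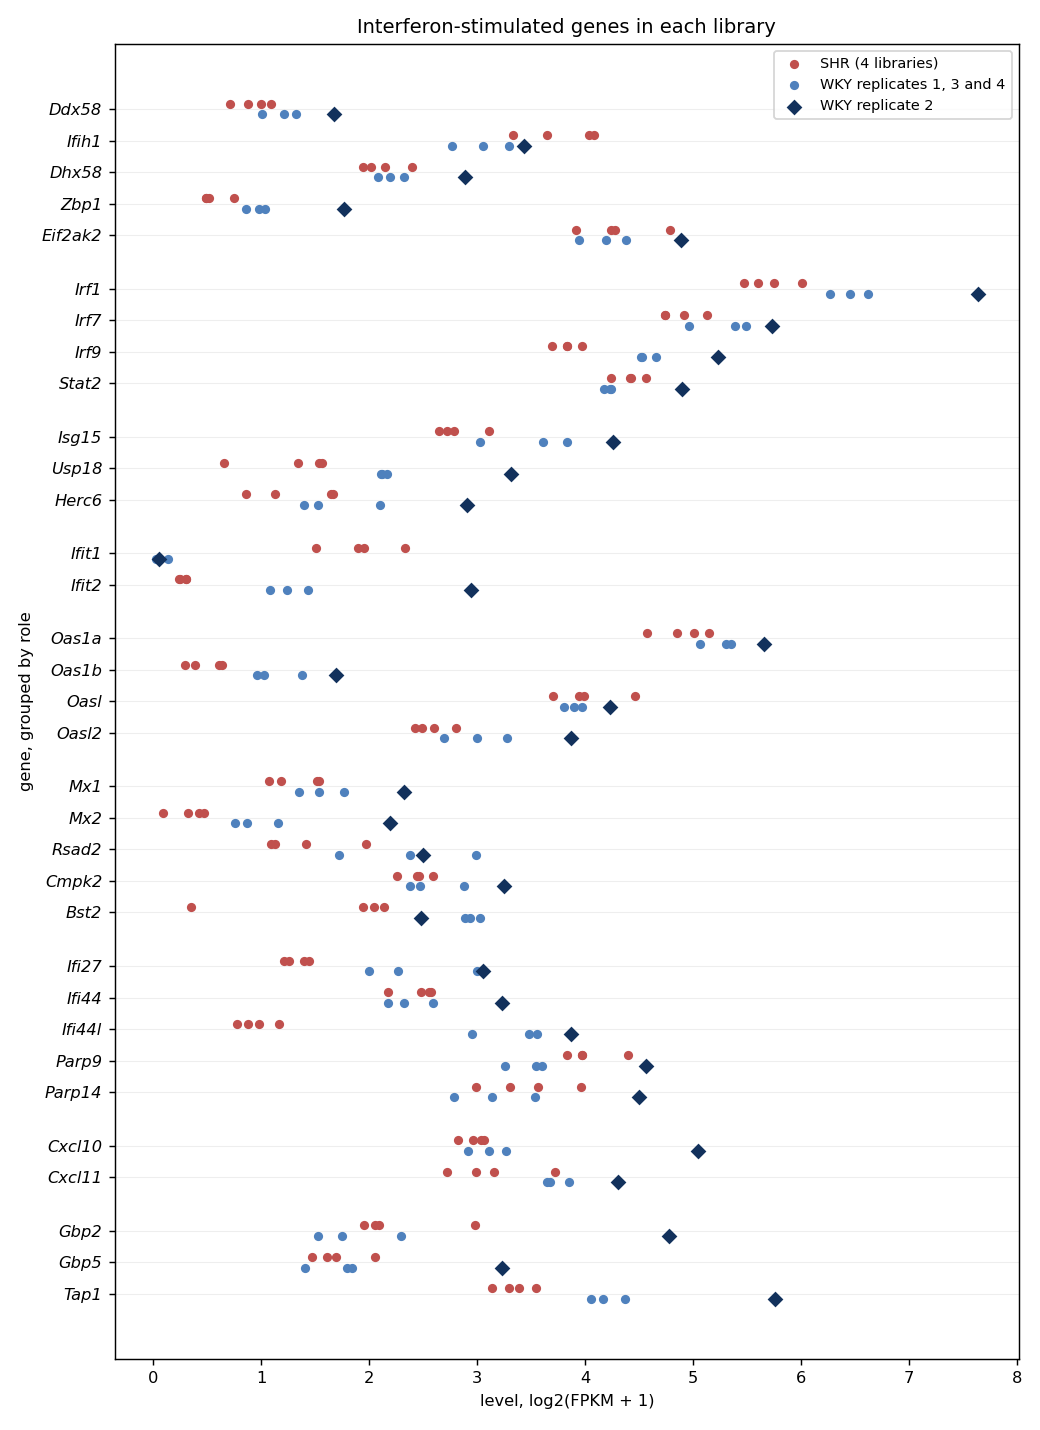
Levels of the 33 interferon-stimulated genes on a log2(FPKM + 1) scale (horizontal axis), grouped by role down the page, with 4 SHR libraries above and 4 WKY libraries below each gene's line. WKY replicate 2 (diamonds) is the rightmost point for 28 genes, while Ifit1 lies far to the right in SHR and Ifi44l far to the left.

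A pair of patterns can be separated. In the first, all SHR values lay on one side of all WKY values. This held for 12 genes, with SHR below WKY in 11 (11.3% of all listed genes) and above it in 1, Ifit1 (5.20% of all listed genes). In the second, the difference changed with WKY replicate 2. A gene was counted here when that library was the highest of the 8, exceeded the mean of the other WKY libraries by at least 0.5 on the log2 scale, and its removal changed the strain difference by over 1.5 times or turned its sign. This held for 15 genes, beside 1.78% of all listed genes. Without that library the difference shrank for 8 of them, turned its sign for 5 and grew for 2, Parp9 and Stat2. Such a change is easily met where the difference with all libraries is near 0, as for Stat2 (0.02), Parp14 (-0.04) and Eif2ak2 (-0.05). By the same rule applied to each other library, SHR replicate 3 took 1 gene and the other 6 libraries took 0. Those counts had to be low, since WKY replicate 2 was already the highest library for 28 of the 33 genes. The rule also cannot count a library that is low. Mx2 and Zbp1 met both descriptions, 10 genes only the first, 13 only the second and 8 neither. These counts describe the values and carry no test. Just inside the rule were Zbp1, whose difference was 1.51 times as large with WKY replicate 2 as without it, and Mx2 and Oasl2, each at 1.53 times. Just outside were Tap1 at 1.46 times, Ifit2 at 1.43 times and Irf1 at 1.40 times. Ddx58 missed on both counts, at 1.47 times and with an excess of 0.49.

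**Figure D2:**
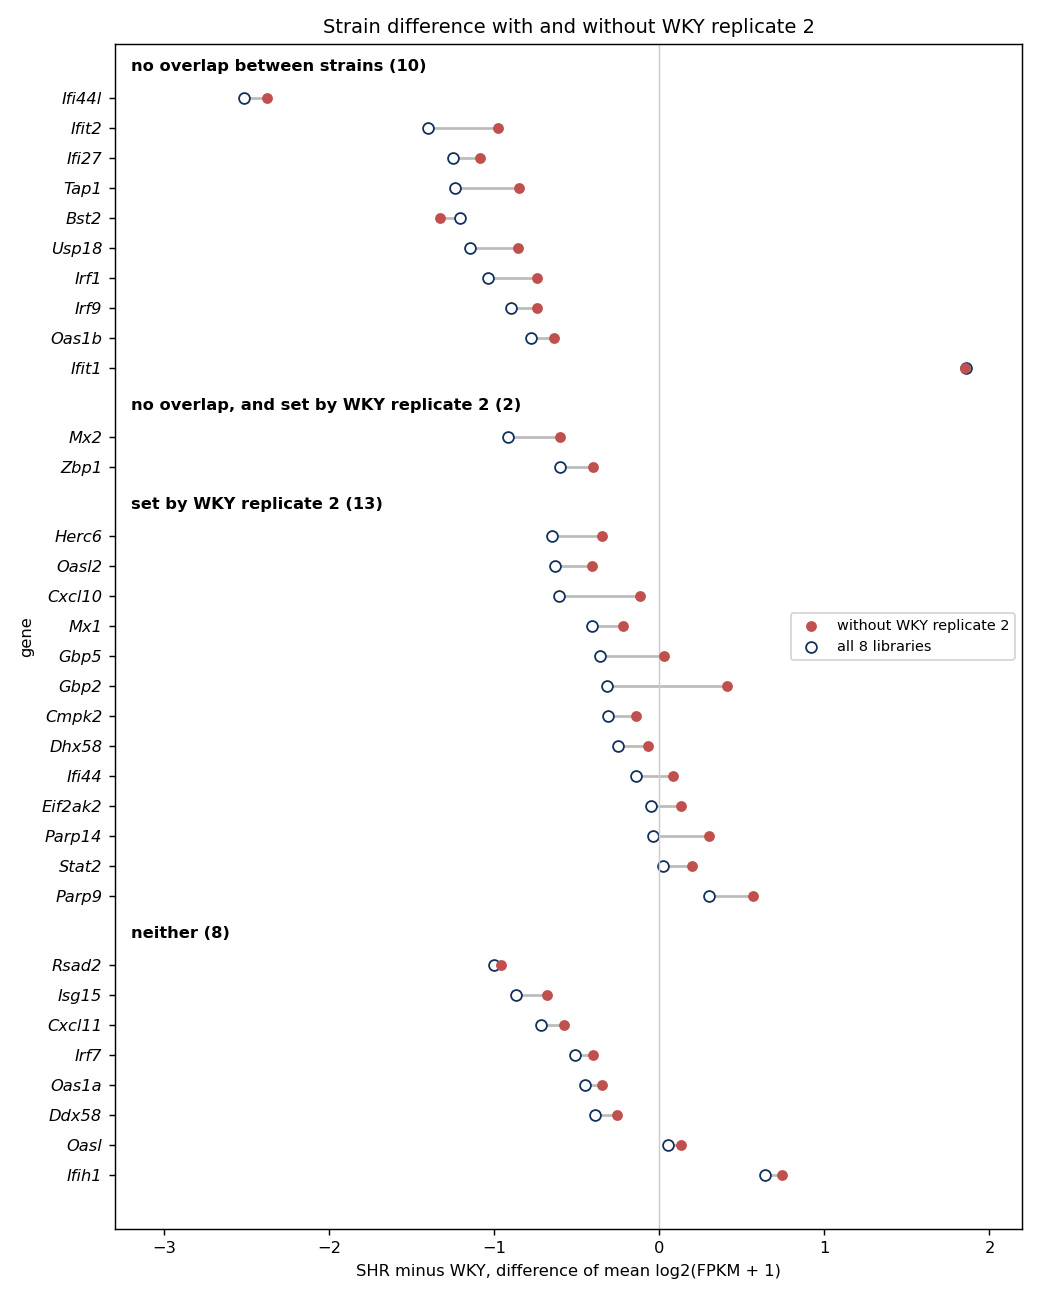
Difference of mean log2(FPKM + 1), SHR minus WKY, for each gene with all 8 libraries (open circles) and without WKY replicate 2 (filled circles). Ifi44l (-2.52 with all libraries and -2.38 without it) and Ifit1 (1.86 and 1.85) move little, while Gbp2 crosses 0 (-0.32 with all libraries and 0.41 without).

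Among the sensors of foreign nucleic acid, only Ifih1 passed the test. Ifih1 encodes MDA5, which binds long double-stranded RNA. It was at 9.1, 11.5, 15.45 and 16 FPKM in SHR replicates 1 to 4, against 7.29, 9.82, 8.84 and 5.83 FPKM in WKY replicates 1 to 4. It rose in SHR by 0.64 ± 0.19 on the log2(FPKM + 1) scale (SE, adjusted p = 0.049), although SHR replicate 1 lay below WKY replicate 2. The call was lost in 5 of the 8 fits that leave out a library, and held without WKY replicate 2 (adjusted p = 0.0432), where all SHR values lay above the other WKY values. Zbp1, a sensor of Z-form nucleic acid that can trigger cell death, was low, at 0.41, 0.68, 0.41 and 0.43 FPKM in SHR and at 0.98, 2.41, 1.05 and 0.82 FPKM in WKY. The strains did not overlap, but the gene was under the filter. The fit without a filter gave it an adjusted p of 0.0451, and the authors' deposited table gives a q-value of 0.00428.

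The other sensors overlapped between the strains. Ddx58, which encodes RIG-I and binds 5′-triphosphate RNA, averaged 0.903 ± 0.211 FPKM in SHR and 1.51 ± 0.501 FPKM in WKY (SD, n = 4 each, adjusted p = 0.118). Dhx58, which encodes the related LGP2, averaged 3.40 ± 0.635 FPKM in SHR and 4.31 ± 1.45 FPKM in WKY, or 3.60 FPKM in WKY without replicate 2. Eif2ak2 encodes PKR, a kinase that stops translation when it meets double-stranded RNA. It was at 14.14, 17.88, 18.36 and 26.61 FPKM in SHR, against 19.83, 28.69, 17.28 and 14.39 FPKM in WKY, and the difference of -0.05 ± 0.21 did not pass (adjusted p = 0.91). Its sign depended on the scaling, and turned without WKY replicate 2 (0.13) and also without SHR replicate 1 (0.08).

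Of the transcription factor genes, Irf1 and Irf9 fell in SHR, Irf7 did not pass and Stat2 differed little. Irf9, the DNA-binding part of the complex that types I and III interferon activate, was at 13.25, 11.93, 13.22 and 14.72 FPKM in SHR, against 22.08, 36.6, 24.28 and 21.94 FPKM in WKY. The groups were well apart, with a narrow spread in SHR and with WKY replicate 2 above the other WKY libraries. The log2 difference was -0.90 ± 0.16 (SE, adjusted p = 0.00312), and -0.74 without WKY replicate 2 (adjusted p = 0.00326). All 8 fits that leave out a library kept the call.

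Irf1, which interferon gamma induces strongly and which drives class I presentation genes, was the most abundant of the set in both strains. It was at 63.55, 52.95, 47.45 and 43.37 FPKM in SHR, against 97.37, 197.88, 86.8 and 75.84 FPKM in WKY. All SHR values lay below all WKY values, and WKY replicate 2 was at 2.28 times the mean of the other WKY libraries. The gene fell by 1.04 ± 0.27 on the log2 scale (adjusted p = 0.037), and without that library the difference was -0.74 with a lower adjusted p of 0.0116. The call was lost in 4 of the 8 fits that leave out a library.

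Irf7, the factor that amplifies interferon production, was at 25.74, 29.11, 33.93 and 25.72 FPKM in SHR, against 30.12, 52.12, 44.07 and 40.88 FPKM in WKY, overlapping only through SHR replicate 3 and WKY replicate 1 (adjusted p = 0.0572). Stat2, the partner of Irf9, averaged 20.3 ± 1.97 FPKM in SHR and 20.4 ± 5.63 FPKM in WKY. WKY replicate 2 held 28.82 FPKM of Stat2, against 17.07 to 17.9 FPKM in the other WKY libraries, which lay below all SHR libraries but replicate 1.

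Isg15 is a ubiquitin-like protein that is attached to other proteins, Herc6 belongs to the family of ligases that attach it in mice, and Usp18 takes it off and also blocks the type I interferon receptor. Isg15 was at 5.6, 5.9, 7.63 and 5.26 FPKM in SHR, against 7.15, 18.21, 13.27 and 11.24 FPKM in WKY, so only SHR replicate 3 and WKY replicate 1 overlapped. It fell by 0.87 ± 0.22 on the log2 scale (adjusted p = 0.0272), a call that was lost in 6 of the 8 fits without a library, among them the fit without WKY replicate 2, where the difference was -0.68 (adjusted p = 0.0566). Usp18 was at 1.96, 1.91, 0.58 and 1.53 FPKM in SHR, against 3.48, 8.95, 3.36 and 3.32 FPKM in WKY. The strains did not overlap and 3 WKY libraries were nearly equal, with WKY replicate 2 at 2.64 times their mean. Usp18 fell by 1.15 ± 0.30 (adjusted p = 0.0369), and by 0.86 without WKY replicate 2 (adjusted p = 0.0251), although 6 of the 8 fits without a library lost the call, as did a pseudocount of 5 (adjusted p = 0.0688). Herc6 averaged 1.58 ± 0.684 FPKM in SHR and 3.32 ± 2.23 FPKM in WKY and did not pass (adjusted p = 0.239). Its WKY mean was 2.27 FPKM without replicate 2.

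The Ifit genes encode proteins that bind viral RNA or slow its translation, and the 2 with a row went in opposite directions. Ifit1 was at 1.84, 2.74, 2.88 and 4.03 FPKM in SHR, against 0.02, 0.04, 0.1 and 0.03 FPKM in WKY. It was near 0 in every WKY library, replicate 2 included, which was the highest library for most other genes of the set. Ifit1 rose by 1.86 ± 0.15 on the log2(FPKM + 1) scale (adjusted p = 7.26e-06), a scale that understates changes from such low levels. The authors' deposited table gives a log2 fold change of 5.84 for it. Ifit2 was at 0.19, 0.24, 0.24 and 0.18 FPKM in SHR, against 1.36, 6.69, 1.71 and 1.12 FPKM in WKY. It fell by 1.40 ± 0.37 (adjusted p = 0.0478), and the call was lost in the 4 fits without an SHR library, in the fit without a filter (adjusted p = 0.0561), under quantile normalization (0.0527) and with a pseudocount of 5 (0.156). As Ifit2 met the filter only through WKY, those 4 were the only fits without a library that tested it. The WKY mean was 2.72 FPKM, or 1.40 FPKM without replicate 2, and the strains did not overlap either way.

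The 4 oligoadenylate synthetase genes with a row encode enzymes, or relatives of them, that make the messenger activating the RNA-degrading RNase L. Of the 3 that were tested, 0 passed (limma), 2 had an unadjusted p under 0.05 (27.4% of all tested genes), and 1, Oasl2, passed by the authors' deposited q-values (14.8%). Oas1a was the most abundant, at 29.0 ± 4.94 FPKM in SHR and 40.0 ± 6.97 FPKM in WKY (SD, n = 4 each, adjusted p = 0.0747). Oas1b was at 0.53, 0.56, 0.23 and 0.31 FPKM in SHR, against 0.95, 2.24, 1.61 and 1.04 FPKM in WKY. It did not overlap between the strains, fell short of the filter, and had an adjusted p of 0.00847 in the fit without one. The authors' deposited table gives Oas1b a q-value of 1.65e-05. Oasl2 averaged 5.01 ± 0.716 FPKM in SHR and 8.70 ± 3.52 FPKM in WKY (adjusted p = 0.0748), with a WKY mean of 7.07 FPKM without replicate 2. Oasl averaged 15.6 ± 3.86 FPKM in SHR and 14.8 ± 2.05 FPKM in WKY (adjusted p = 0.879). Close relatives exist in the Oas, Ifit, Mx and Gbp families, among which reads can be divided, so the levels of single members are uncertain.

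Of the other antiviral effectors, Rsad2 fell in SHR, and WKY replicate 2 was not its highest library. Rsad2 encodes viperin, which makes a chain-terminating nucleotide, and Cmpk2 supplies its substrate. Rsad2 was at 1.67, 1.14, 2.92 and 1.19 FPKM in SHR, against 2.3, 4.67, 6.97 and 4.22 FPKM in WKY, with WKY replicate 3 the highest. The strains overlapped through SHR replicate 3 and WKY replicate 1. The mean was 1.73 ± 0.83 FPKM in SHR and 4.54 ± 1.92 FPKM in WKY (SD, n = 4 each, limma adjusted p = 0.0386), and without WKY replicate 2 the log2 difference was -0.96 (adjusted p = 0.096). The call was lost in 6 of the 8 fits without a library, and also under quantile normalization (0.0759), median centring (0.0655) and a pseudocount of 5 (0.0518). Cmpk2 lies next to Rsad2 in the black rat assembly Rrattus_CSIRO_v1, yet it did not pass. It was at 4.43, 5.05, 4.5 and 3.78 FPKM in SHR, against 4.56, 8.51, 6.35 and 4.19 FPKM in WKY, with replicate 2 the highest.

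Bst2, which encodes tetherin and holds budding virus at the cell surface, was at 0.28, 3.4, 2.85 and 3.12 FPKM in SHR, against 6.42, 4.6, 6.66 and 7.15 FPKM in WKY. All SHR values lay below all WKY values, and here WKY replicate 2 was the lowest of its strain. SHR replicate 1 was far below the other SHR libraries, and the difference of -1.21 ± 0.38 did not pass (adjusted p = 0.0769). Without SHR replicate 1 the difference was smaller, at -0.79, and passed (adjusted p = 0.00784), as it did with a pseudocount of 5 (adjusted p = 0.0186). Mx1 and Mx2 encode dynamin-like GTPases that trap viral ribonucleoproteins. Mx2 was at 0.07, 0.39, 0.25 and 0.34 FPKM in SHR, against 0.69, 3.58, 1.23 and 0.83 FPKM in WKY, and the strains did not overlap. It was under the filter and had an adjusted p of 0.0714 in the fit without one (limma), while the authors' deposited table gives a q-value of 4.95e-05. Mx1 averaged 1.54 ± 0.410 FPKM in SHR and 2.46 ± 1.08 FPKM in WKY, overlapped, and did not pass (adjusted p = 0.196).

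Ifi44l and Ifi27, interferon-induced genes of less settled function, fell in SHR in every library. Ifi44l was at 0.72, 0.97, 0.84 and 1.24 FPKM in SHR, against 10.15, 13.67, 10.76 and 6.77 FPKM in WKY. All SHR values lay below all WKY values, and the SHR mean was 0.0912 of the WKY mean. The log2 difference was -2.52 ± 0.18 (adjusted p = 1.65e-06), and -2.38 without WKY replicate 2 (adjusted p = 4.8e-06). Its relative Ifi44 differed little, at 4.59, 4.96, 3.51 and 4.87 FPKM in SHR, against 4.02, 8.38, 5.03 and 3.53 FPKM in WKY (adjusted p = 0.705). Without WKY replicate 2 the WKY mean of Ifi44 was 4.19 FPKM, below the SHR mean of 4.48 FPKM. Ifi27 was at 1.32, 1.4, 1.64 and 1.72 FPKM in SHR, against 3.01, 7.34, 6.98 and 3.83 FPKM in WKY, where replicates 2 and 3 were both high. It fell by 1.25 ± 0.22 (adjusted p = 0.00331), a call kept in all 8 fits without a library, as was that of Ifi44l.

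Parp9 and Parp14 encode ADP-ribosyltransferase family proteins that act in interferon signalling, and Dtx3l encodes the ubiquitin ligase that pairs with Parp9. The 3 genes are neighbours in the black rat assembly. Parp9 was at 13.25, 14.67, 14.73 and 20.05 FPKM in SHR, against 11.15, 22.66, 10.67 and 8.59 FPKM in WKY. Every SHR value exceeded WKY replicates 1, 3 and 4, while WKY replicate 2 exceeded every SHR value. With all libraries the difference was 0.30 ± 0.25 (adjusted p = 0.467), and without WKY replicate 2 it was 0.57 and passed (adjusted p = 0.0475). Parp14 was at 6.95, 8.87, 10.84 and 14.57 FPKM in SHR, against 7.81, 21.67, 10.63 and 5.92 FPKM in WKY. Its difference had opposite signs with WKY replicate 2 (-0.04) and without it (0.30), and passed in neither case. Dtx3l, which is not among the 33, was at 7.38 to 8.99 FPKM in SHR and at 5.39 to 7.2 FPKM in WKY apart from replicate 2, which held 15.05 FPKM.

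The chemokines Cxcl10 and Cxcl11 draw T cells through the receptor Cxcr3, and their genes lie side by side in the black rat assembly. Cxcl10 was at 7.23, 6.82, 6.09 and 7.39 FPKM in SHR, against 6.53, 32.12, 7.63 and 8.65 FPKM in WKY. Only WKY replicate 2 stood out, at 4.22 times the mean of the other WKY libraries, and the difference of -0.61 ± 0.45 (adjusted p = 0.418) shrank to -0.12 without it. Cxcl11 was at 7.94, 12.19, 5.6 and 6.95 FPKM in SHR, against 13.4, 18.8, 11.77 and 11.56 FPKM in WKY, overlapping through SHR replicate 2. It fell by 0.72 ± 0.21 (adjusted p = 0.0449), lost in 6 of the 8 fits without a library, the one without WKY replicate 2 among them, where the difference was -0.58 (adjusted p = 0.121).

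Gbp2 and Gbp5 encode guanylate-binding proteins that attack vacuoles of intracellular bacteria and parasites. For Gbp2, WKY replicate 2 lay further above its strain than for any other gene of the set. Gbp2 was at 3.17, 2.87, 3.27 and 6.88 FPKM in SHR, against 3.92, 26.36, 2.36 and 1.89 FPKM in WKY. WKY replicate 2 was at 9.68 times the mean of the other WKY libraries, and SHR replicate 4 was the next highest. The difference was -0.32 ± 0.75 with all libraries (adjusted p = 0.825) and 0.41 without WKY replicate 2 (adjusted p = 0.397). Gbp5 was at 2.24, 2.05, 1.77 and 3.15 FPKM in SHR, against 2.58, 8.4, 2.48 and 1.65 FPKM in WKY, with differences of -0.36 and 0.03.

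Tap1, a subunit of the peptide pump that loads class I molecules, did not overlap between the strains and lay just outside the rule for WKY replicate 2. It was at 7.83, 10.65, 8.82 and 9.47 FPKM in SHR, against 19.69, 53.11, 15.58 and 16.95 FPKM in WKY. WKY replicate 2 was at 3.05 times the mean of the other WKY libraries. With all libraries the difference was -1.24 ± 0.35 and did not pass (adjusted p = 0.056), although it passed with a pseudocount of 0.1 (0.0487), under quantile normalization (0.0426) and under median centring (0.0447). Without WKY replicate 2 it was smaller, at -0.85, and passed (adjusted p = 0.00325). In the black rat assembly Tap1 lies between the immunoproteasome genes Psmb8 and Psmb9. Psmb9 fell in SHR, at 79.57, 70.99, 67.09 and 64.6 FPKM, against 163.98, 214.8, 102.64 and 158.54 FPKM in WKY (log2 difference -1.13 ± 0.18, adjusted p = 0.00246). Psmb8 did not pass, at 71.72 to 94.56 FPKM in SHR and 70.93 to 103.04 FPKM in WKY (adjusted p = 0.657), and neither did Tap2, the other subunit of the pump (adjusted p = 0.898).

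Among the libraries of a strain, the genes ordered differently. SHR replicate 1 was the lowest SHR library for 17 of the 33 genes and SHR replicate 4 the highest for 15. WKY replicate 2 was the highest WKY library for 30 genes, WKY replicate 3 for Rsad2 and Ifit1, and WKY replicate 4 for Bst2. The median deviation from a gene's mean over 8 libraries was -0.37, -0.28, -0.28 and -0.21 in SHR replicates 1 to 4, against -0.03, 0.82, 0.21 and -0.01 in WKY replicates 1 to 4, on the log2 scale. The medians of WKY replicates 1, 3 and 4 thus also lay above those of the SHR libraries.

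**Figure D3:**
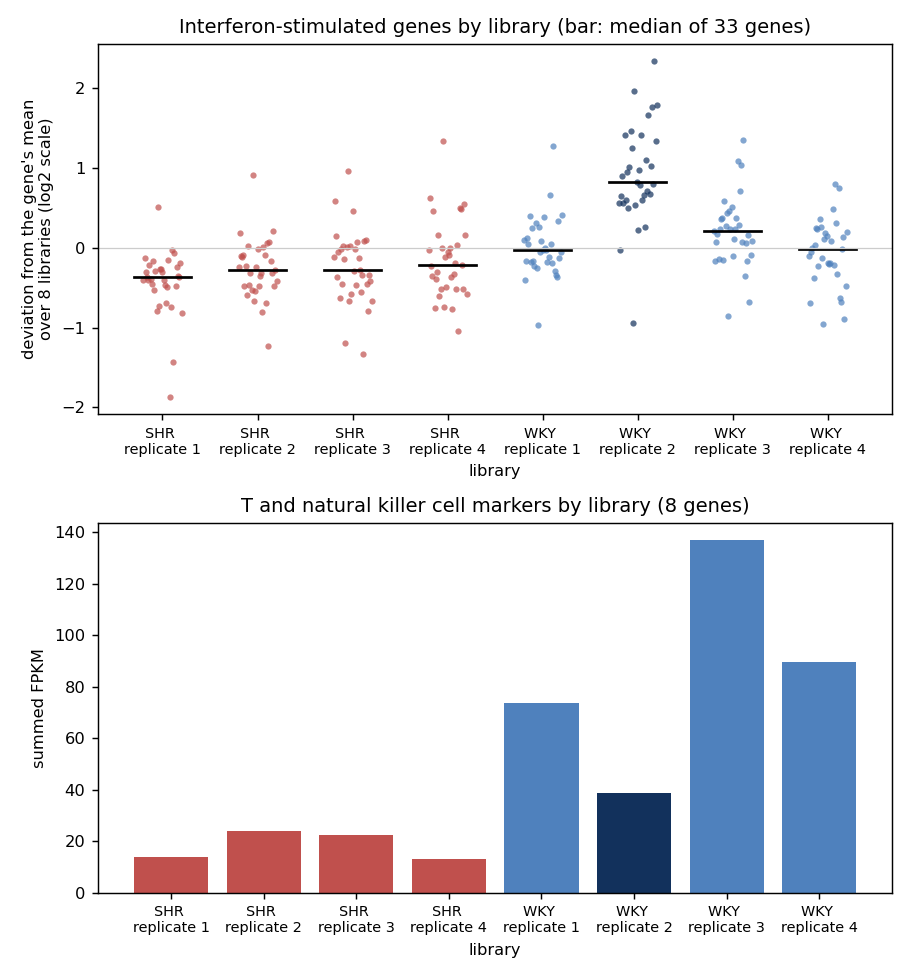
Top, deviation of each of the 33 genes from its mean over the 8 libraries (log2 scale, vertical axis) by library, with a bar at the median, which is 0.82 in WKY replicate 2 and at most 0.21 elsewhere. Bottom, summed FPKM of 8 genes marking T and natural killer cells in the same libraries, 13.2 to 23.9 in SHR and 38.6 to 136.8 in WKY, where replicate 2 is the lowest. Gzma is the largest part of each sum.

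Without WKY replicate 2, 9 genes of the set passed, 6 lower and 3 higher in SHR, where 4.75% of the genes tested in that fit fell and 2.55% rose. Of these, 7 were among the 11 called with all libraries. Cxcl11, Isg15, Rsad2 and Ifit2 were called only with all libraries (Ifit2 no longer met the filter), and Parp9 and Tap1 only without WKY replicate 2. The median difference of the 33 genes was -0.35 without that library, beside -0.05 over all listed genes, and 23 were negative. The 11 genes with SHR below WKY in every library were still the only ones (13.2% of all listed genes in this comparison), while Ifih1 and Parp9 joined Ifit1 above (6.64%).

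The rest of the interferon pathway was read from a list of 86 other symbols, of which 64 had a row and 62 were tested. In it, 8 genes fell in SHR and 0 rose (limma), where 7.48% of all tested genes fell and 3.40% rose. At an unadjusted p under 0.05, 7 were higher, where 9.01% of all tested genes were. The genes for interferon beta, gamma, kappa, epsilon and lambda had no row under their symbols and were not analysed here. Of the receptor and kinase genes, 0 of 10 passed (limma), 3 had an unadjusted p under 0.05 (27.4% of all tested genes) and 2 passed by the authors' deposited q-values (14.8%), with a median difference of 0.13. Ifnar1, a subunit of the type I receptor, was at 5.47, 7.75, 7.91 and 6.84 FPKM in SHR, against 5.01, 4.67, 5.15 and 4.82 FPKM in WKY. The values did not overlap, at an adjusted p of 0.0501. The kinase gene Tyk2 did not overlap either, at 10.5 to 14.18 FPKM in SHR and 8.55 to 9.64 FPKM in WKY (adjusted p = 0.0579). Ifnlr1, the specific subunit of the lambda receptor, was at 2.71 to 4.13 FPKM in SHR and 1.77 to 3.62 FPKM in WKY. Of 7 sensing adaptors and 7 negative regulators, 0 passed (limma), 1 of each had an unadjusted p under 0.05, and the authors' deposited q-values passed 1 adaptor and 0 regulators.

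WKY replicate 2 was also high for several of these genes, again without a test. It met the rule above for 15 of the 64 genes, beside 1.78% of all listed genes. The immunity-related GTPases, which interferon gamma induces in mice, were among those with the largest excess. Igtp was at 3.4 to 4.8 FPKM in SHR, against 36.86 FPKM in WKY replicate 2 and 4.98 to 7.7 FPKM in the other WKY libraries. Ifi47 was at 11.76 to 14.26 FPKM in SHR, against 77.49 FPKM in WKY replicate 2 and 11.16 to 18.81 FPKM in the others. The feedback inhibitor genes Socs1 and Socs3 were at 7.75 and 27.5 FPKM in WKY replicate 2, and at up to 3.39 and 10.17 FPKM in the other WKY libraries. Among the receptor genes themselves, the excess lay between -0.08 and 0.23.

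**Figure D4:**
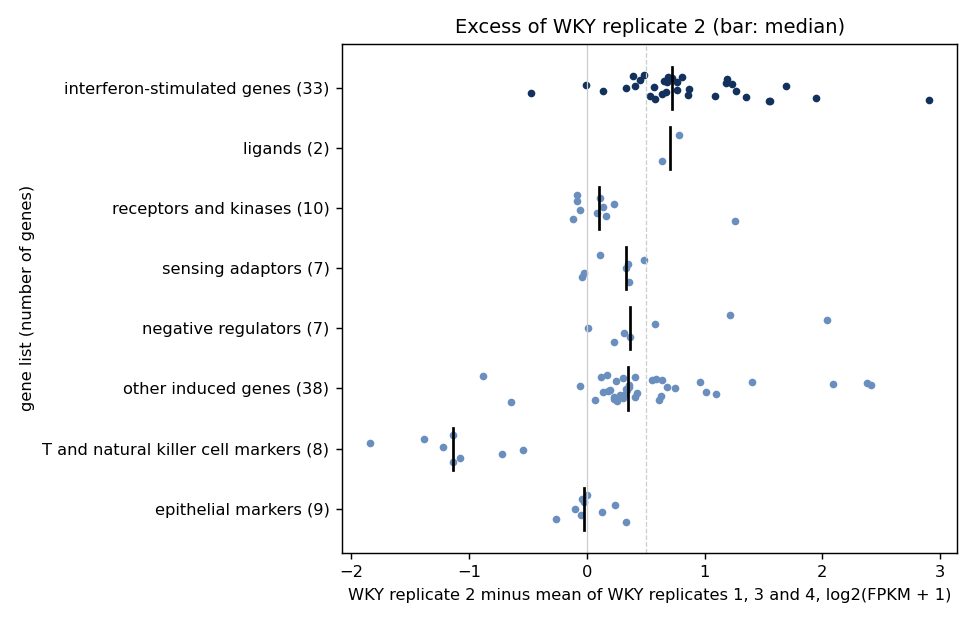
Excess of WKY replicate 2 over the mean of the other 3 WKY libraries on the log2(FPKM + 1) scale (horizontal axis) for the 33 genes, 5 groups of the pathway list, and markers of T and natural killer cells and of epithelium, with a bar at each median. The median is 0.72 for the 33 genes, 0.10 for receptors and kinases, -1.14 for T and natural killer cell markers and -0.02 for epithelial markers.

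The 8 genes of the pathway list that fell include regulators of antigen presentation and of interferon gamma release. Nlrc5, the transactivator of class I presentation genes, was at 0.43, 0.46, 0.59 and 0.59 FPKM in SHR, against 2.12, 3.5, 1.51 and 1.47 FPKM in WKY (adjusted p = 0.00315). It met the filter only through WKY. Il18, whose product makes lymphocytes release interferon gamma, was at 37.89, 32.98, 36.22 and 44.74 FPKM in SHR, against 90.64, 123.96, 70.87 and 76.61 FPKM in WKY (adjusted p = 0.000632). Neither overlapped between the strains. The others were Psmb9, the exonuclease gene Isg20, the proteasome activator genes Psme1 and Psme2, Lgals3bp and Nampt, the last of which overlapped between the strains. Without WKY replicate 2, Psme2 and Nampt did not pass (limma adjusted p = 0.127 and 0.0849) and Nlrc5 no longer met the filter. Il18, Psmb9, Isg20, Psme1 and Lgals3bp still passed.

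Markers of T and natural killer cells, the usual source of interferon gamma, were lower in SHR, and within WKY they were lowest in replicate 2. Of 12 symbols, 8 had a row, all above 0 in every library, and 5 fell in SHR, where 7.48% of all tested genes fell. One of the 5, Nkg7, met the filter only through WKY. Their summed level was 13.9, 23.9, 22.4 and 13.2 FPKM in SHR replicates 1 to 4, against 73.7, 38.6, 136.8 and 89.6 FPKM in WKY replicates 1 to 4. WKY replicate 2 thus had the lowest sum of its strain and the highest level of interferon-stimulated genes. Gzma was the largest part of each sum, at 5.09 to 11.06 FPKM in SHR and 37.39, 21.45, 80.87 and 44.75 FPKM in WKY replicates 1 to 4. Cd3e, Cd8a and Lck did not pass (limma), and their strains overlapped only through WKY replicate 2. Of 11 markers of macrophages and dendritic cells, 5 had a row and summed to 172.5 to 185.3 FPKM in SHR and 126.4 to 158.4 FPKM in WKY, with 155.4 FPKM in WKY replicate 2. That sum was mostly Cd14 and Irf8, which is in the pathway list too, and the defining markers Adgre1, Itgax and Siglech had no row. Of the 4 tested, Cd14 and Tcf4 rose in SHR (limma adjusted p = 0.00188 and 0.0301), where 3.40% of all tested genes rose. Tcf4 did not pass without WKY replicate 2 (limma adjusted p = 0.0966). Lyz2 and Irf8 had negative differences that did not pass (limma adjusted p = 0.375 and 0.374). Csf1r was under the filter, at a mean of 0.325 FPKM in SHR and 0.525 FPKM in WKY. Of the stromal markers 2 of 8 had a row, at 1.93 to 8.39 FPKM in SHR and 4.71 to 17.8 FPKM in WKY, and of the B and plasma cell markers 1 of 7, Cd38. The part of any of these cells in the strain differences was not tested.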

How the data were processed

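Poly(A)-selected RNA was sequenced as directional paired-end libraries, per the labels' protocols. The submitters' processing notes list FastQC, Trimmomatic and STAR, with no version, and the sources used here give no build, annotation or counting tool. The labels name the organism as the black rat, while the deposited identifiers are those of the brown rat. The authors deposited one table with a value per gene and library, taken here as FPKM: no header names the unit, which was inferred from the totals. Each value multiplied by its gene's length gave library totals of 982968 to 1017515, while plain sums ran from 882295 to 1066833. The lengths came from the authors' mean CPM columns divided by these same values. The average of the length-weighted totals was therefore set in advance, and only their narrower spread bears on the unit. Per the file headers the table also holds mean CPM per strain (an averaged signal), a log2 fold change, and p-values and q-values by the authors. Deposited values are rounded to 2 decimals and their lengths differ, so reads per library, counting intervals and depth could not be recovered. A value of 0 occurred in 1 or more libraries for 55 genes. Strand use in counting is not given, so overlapping genes cannot be told apart.

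The count test planned was replaced by the one planned for normalized values. Log2(FPKM + 1) of the 11069 genes that reached 1 FPKM in 4 or more libraries was fitted on strain with limma 3.58.1 in R 4.3.3 (two-sided moderated test, trend and robust options on, Benjamini-Hochberg over all tested genes, threshold 0.05). Differences are SHR minus WKY. Where a symbol had several rows, that of highest mean was used. The fit was tested on simulated data. Overlap and the excess of WKY replicate 2 were described over all 11762 listed genes. Every gene of the set was accounted for, and genes of the pathway list were named if called, or if they encode receptors, kinases or transcription factors. Dtx3l, Tap2, Psmb8, Igtp, Ifi47, Socs1 and Socs3 were named after their values were seen. The members, lists and rules were chosen with earlier results of these data known. Alternatives were pseudocounts of 0.1 and 5, quantile normalization, centring on the median, dropping the filter, a replicate block, leaving out each library, the authors' q-values, and an excess of 1. Gene order was taken from Rrattus_CSIRO_v1, where 23 of the 33 symbols matched. One gene of the pathway list is not reported here by name. The labels give no batch. Figures were drawn with matplotlib 3.10.9.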

Additional observations from a re-analysis of the deposited data

Results flagged for a closer look

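Within a strain, a library was set apart when its gap to the next value exceeded the share of the strain's whole range that Dixon's 95% critical value for 4 samples allows, for each of the 33 genes in each strain. This happened in 11 of 66 cases. Chance sets apart about 5% of groups, but WKY replicate 2 had been singled out from these same values, so the cases describe it again and do not test it. WKY replicate 2 was the high library in 9 of them, for Zbp1 (2.41 FPKM), Irf9 (36.6 FPKM), Stat2 (28.82 FPKM), Usp18 (8.95 FPKM), Ifit2 (6.69 FPKM), Cxcl10 (32.12 FPKM), Gbp2 (26.36 FPKM), Gbp5 (8.4 FPKM) and Tap1 (53.11 FPKM). Over all listed genes this library was set apart as high for 1.07%. The genes vary together and share the library, so the 9 cases are not independent. The other 2 cases were SHR replicate 2 for Zbp1 (0.68 FPKM), at levels under 1 FPKM, and SHR replicate 4 for Gbp2 (6.88 FPKM).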

How the results depend on the processing

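Over all genes, 376 rose and 828 fell in SHR. Without 1 library, 191 to 550 genes were higher and 440 to 1126 lower, and other settings gave, under quantile normalization, 642 higher genes and, by the authors' q-values, 675. Of the interferon-stimulated genes, 9 fell and 2 rose. Fits without 1 library gave 3 to 7 lower and 0 to 3 higher. Ifit1 no longer meets the filter when an SHR library is left out, nor does Ifit2 when a WKY library is. The authors' deposited q-values gave 17 of the 33 lower and 2 higher, beside 1128 lower and 675 higher of the 11762 listed genes. The 17 include Zbp1, Oas1b and Mx2, which the main fit did not test. The fewest lower genes of the set, 3, were found without SHR replicate 4, where 827 of all genes were lower. With the replicate block the counts were 11 lower and 1 higher, beside 917 lower and 395 higher over all genes. Irf7 and Tap1 passed with it (limma adjusted p = 0.0324 and 0.0142) and Ifih1 did not (0.0506). Replicate numbers are not said to pair libraries, and the correlations of same-numbered deviations were -0.11, -0.04, 0.46 and -0.29. Genes with SHR above WKY in every library numbered 1, or 2 under quantile normalization and median centring, and 1 to 3 when a library was left out. The 15 genes whose difference changed with WKY replicate 2 became 7 when an excess of 1 was asked. The sign turned for Eif2ak2 (0.01 under quantile normalization, 0.00 under median centring) and Parp14 (0.02 and 0.01), none of which passed. When a library was left out, the differences ranged from -0.21 to 0.13 for Eif2ak2, -0.05 to 0.20 for Stat2, -0.10 to 0.15 for Oasl, -0.27 to 0.08 for Ifi44, -0.27 to 0.30 for Parp14, -0.67 to 0.41 for Gbp2 and -0.58 to 0.03 for Gbp5. The calls of Irf9, Ifi27 and Ifi44l held in all 8 such fits. Ifit1 met the filter only through SHR, so only the 4 fits without a WKY library tested it, and it passed in these. Each of them leaves out a WKY library near 0, so they cannot show whether the call of Ifit1 depends on an SHR library. With all libraries and no filter its adjusted p was 6.29e-06 (limma). The cause of these changes was not tested. Unknown depth limits the genes under 1 FPKM most, Zbp1, Oas1b, Mx2 and Ifit2 in SHR among them.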
